A study of Mus musculus with 8 samples.

Results

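The genes described here are 10 markers of epithelial cells: the keratins Krt5, Krt7, Krt8, Krt18 and Krt19, the claudins Cldn6 and Cldn7, the adhesion genes Epcam and Cdh1, and the mucin Muc13. They were taken by symbol from a table of 14496 genes of embryonic mouse brain, where all 10 have a row and all 10 passed the filter on low counts. The mouse embryonic stem cell (mESC) table holds 9217 genes, and 4 of the 10 were read from it. It is listed by peak, in 23089 entries, so a gene without an entry has no level given there. The 10 genes were chosen by their CPM in these same NTD and control brain libraries, so those levels are given as a description, with no p-value.

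Brain libraries came in groups of 3. The NTD (neural tube defect) libraries are from embryos whose dams had a low folate diet and an intraperitoneal dose of 1.5 mg/kg methotrexate (MTX), an antifolate drug, on gestational day 7.5. Per the labels, embryos put in that group were delayed and small, with defects of the hindbrain and an open spine, so developmental stage and treatment cannot be told apart. The control libraries carry the label normal saline, and the labels do not give the diet of their dams. The neural tube was examined from day 9.5 to day 10.5, and the labels do not say how many embryos or litters a library holds. The mESC line, sv129, gave 1 library grown without folic acid (FA0) and 1 with 4 mg/L (FA4).

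Keratins are proteins of intermediate filaments and assemble in pairs of an acidic type I and a basic type II chain. Krt8 pairs with Krt18, and also with Krt19, in simple, single-layered epithelia, which include trophoblast and the endoderm of the yolk sac, while Krt5 pairs with Krt14 in the basal layer of stratified epithelia such as epidermis. Claudins form the strands of tight junctions, Cdh1 (E-cadherin) joins neighbouring cells at adherens junctions, Epcam is a surface protein of epithelial and embryonic stem cells, and Muc13 is a mucin anchored in the membrane. The neural plate gives up Cdh1 for Cdh2 (N-cadherin) as the neural tube forms.

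The brain libraries held 17335564 to 26788304 counts. Levels are in CPM, a gene's counts scaled to a common library size with TMM (trimmed mean of M values) factors, where 3 counts come to between 0.110 and 0.180 CPM. Among the 6440 genes that averaged 500 counts or more, 99 had 3 or fewer counts in control library 1, against 8 to 35 in the other libraries. All marker lists were chosen with earlier results of these data known. The 10 neuron markers (Dcx, Tubb3 and others) summed to 785 to 886 CPM in the NTD libraries and to 3957 to 5305 CPM in the controls. As a sum these neuron markers were thus found in both groups, though Rbfox3 was at 0.0391 CPM in NTD library 1. By edgeR's test 9 of the 10 were lower, where 0.998% of all tested genes were lower and 1.89% higher. The 7 neural progenitor markers summed to 402 to 744 CPM in NTD libraries and 1280 to 1454 CPM in controls, with 2 lower and 0 higher. Among them, Sox2 held 2.97, 0.0776 and 1.08 CPM in NTD libraries, against 4.61, 4.57 and 6.94 CPM in controls. Pax6 held 0, 0.0776 and 8.48 CPM, against 0.863, 1.72 and 5.11 CPM. Marker genes of extraembryonic tissue also differed between the groups. Trophoblast markers summed to between 1176 and 1821 CPM in NTD libraries and between 0 and 13.9 CPM in controls. Prl3d2 alone averaged 1198 CPM in the NTD libraries. By edgeR 8 of 12 tested genes were higher, and a gene at 0 in every control could come out in that direction only. Tpbpa, Prl3d3 and Prl8a9 held 0 counts in every control library. So did Elf5, Syna and Synb, which were not tested. Elf5 and Synb were at 0.0781 CPM or less in every NTD library, and Syna was at 0 in NTD libraries 1 and 3. Yolk sac and visceral endoderm markers summed to between 13000 and 15240 CPM in NTD libraries and between 290.0 and 607.1 CPM in controls, with 7 of 15 higher. Markers of surface ectoderm and epidermis summed to 39.6 to 67.1 CPM in NTD libraries and 65.2 to 157.8 CPM in controls, with 0 of 9 called by edgeR and Krt14 and Dlx5 at 0 in every NTD library. NTD library 2, at 67.1 CPM, lay above control library 3, and Dlx5 was at 0 in controls 2 and 3 as well. At an unadjusted edgeR p under 0.05, 1 of those 9 was lower and 0 were higher, against 782 lower and 966 higher of all 11626 genes. The part of these other cell types in the levels below was not tested, and in bulk tissue fewer cells of a type and less RNA per cell cannot be told apart.

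**Figure D1:**
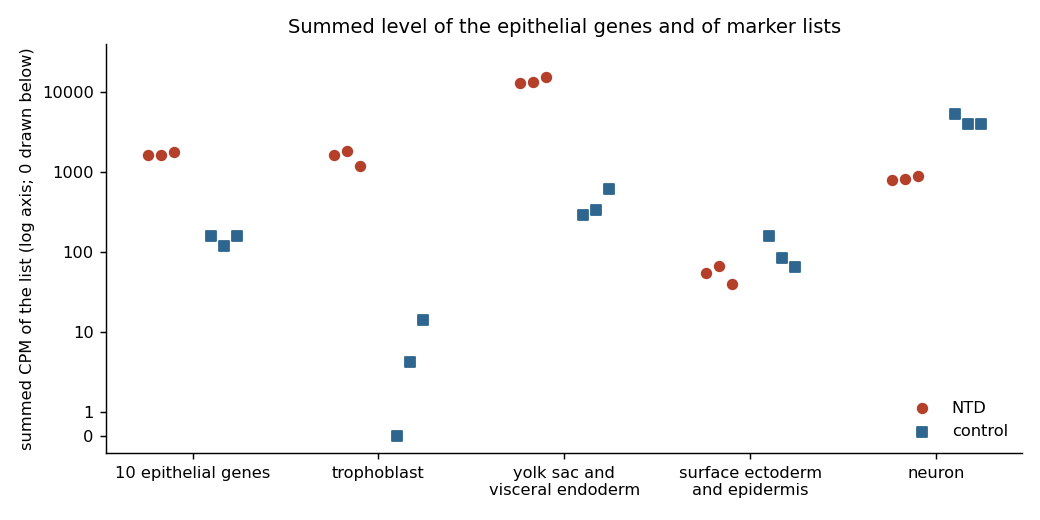
Summed CPM (log axis, with 0 drawn at the bottom) of the 10 epithelial genes and of 4 marker lists in each brain library, with NTD libraries as circles and controls as squares. The epithelial genes summed to 1608 to 1784 CPM in NTD libraries and 116.9 to 158.5 CPM in controls, and the groups overlap for the surface ectoderm markers alone among the 5 sums.

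On chromosome 15 of GRCm38 (the assembly that mm10 names, with GENCODE M21 positions), the type II keratin genes lie in a row. Krt7 runs from 101411043 to 101430313 on the plus strand and Krt5 from 101707070 to 101712898 on the minus strand. Krt8 follows from 101996698 to 102004482 on the minus strand, and Krt18, the one type I gene at this place, from 102028180 to 102032027 on the plus strand. Krt8 and Krt18 thus stand head to head, 23697 bases apart. Krt19 is on chromosome 11, from 100140810 to 100148665. The promoter windows of 5 genes are shown because they stand before genes whose levels went in opposite directions. Each is the 250 bases before the start that RefSeq gives in GRCm38.p6, read 5′ to 3′ on the strand of the gene, and a RefSeq start can differ from the GENCODE gene end. Capitals mark CACCTG (an E-box that Snail and ZEB repressors bind) or GGGCGG (the GC box of SP and KLF factors) on either strand.
Krt8, chr15:102004343-102004592, minus strand: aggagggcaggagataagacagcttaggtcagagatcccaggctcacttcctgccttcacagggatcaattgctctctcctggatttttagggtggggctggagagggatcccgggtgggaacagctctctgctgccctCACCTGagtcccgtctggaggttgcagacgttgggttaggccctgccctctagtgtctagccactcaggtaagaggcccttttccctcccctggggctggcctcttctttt
Krt18, chr15:102027966-102028215, plus strand: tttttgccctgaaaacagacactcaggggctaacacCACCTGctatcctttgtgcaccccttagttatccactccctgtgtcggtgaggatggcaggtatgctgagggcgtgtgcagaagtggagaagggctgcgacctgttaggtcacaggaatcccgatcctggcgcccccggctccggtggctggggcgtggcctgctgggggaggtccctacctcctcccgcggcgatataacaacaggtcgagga
Krt5, chr15:101712906-101713155, minus strand: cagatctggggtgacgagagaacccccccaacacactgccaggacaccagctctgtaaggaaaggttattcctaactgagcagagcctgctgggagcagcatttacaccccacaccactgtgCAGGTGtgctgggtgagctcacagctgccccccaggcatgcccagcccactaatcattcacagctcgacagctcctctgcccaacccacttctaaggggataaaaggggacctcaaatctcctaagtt
Cldn6, chr17:23679115-23679364, plus strand: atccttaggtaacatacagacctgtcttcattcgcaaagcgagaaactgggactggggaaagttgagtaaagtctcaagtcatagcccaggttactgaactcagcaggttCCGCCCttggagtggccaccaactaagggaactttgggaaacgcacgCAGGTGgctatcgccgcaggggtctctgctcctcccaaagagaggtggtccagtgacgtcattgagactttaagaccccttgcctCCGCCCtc
Epcam, chr17:87635729-87635978, plus strand: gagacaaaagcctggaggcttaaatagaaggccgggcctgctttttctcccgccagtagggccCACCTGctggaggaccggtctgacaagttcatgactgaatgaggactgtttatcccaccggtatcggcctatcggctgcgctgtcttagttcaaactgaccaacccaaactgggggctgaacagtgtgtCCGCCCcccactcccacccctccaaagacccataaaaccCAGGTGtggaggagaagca

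CACCTG or its complement CAGGTG stood in a window of 7 of the 8 genes with an entry, namely Krt5, Krt7, Krt8, Krt18, Cldn6, Cldn7 and Epcam. Among all 32851 windows of that length, 17.22% hold it, and 19.43% of the 27025 genes have at least 1 such window. The letters stood 128 bases before the start of Krt5, which was lower in NTD libraries. They stood 111 and 214 bases before the starts of Krt8 and Krt18, which were higher. A link between the letters and the levels was not tested. GGGCGG stood before 4 of the 8 (Krt7, Cldn6, Cldn7 and Epcam), against 32.74% of all windows and 35.36% of all genes. The core of the Grainyhead-like site, AACCGG, was in the windows of 1 gene (Cldn7), against 5.62% of all windows and 6.40% of all genes. The AP-1 letters TGANTCA were in those of 1 gene (Muc13), against 6.75% of windows and 7.82% of genes, and TATAAA in those of 0, against 12.37% of windows and 14.33% of genes. Cldn7 and Muc13 have more than 1 window each. Matches of the different motifs did not overlap in these windows. A match is a run of letters and not a shown binding site. Krt19 and Cdh1 were not among the windows used.

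The simple-epithelial keratins Krt7, Krt8, Krt18 and Krt19 had higher levels in all 3 NTD libraries than in any control, and the basal keratin Krt5 had next to none in NTD libraries. Among other simple-epithelial keratins, Krt20 overlapped between the groups. Krt23, which was not tested, held 0 CPM in every NTD library, against 0, 2.81 and 1.62 CPM in controls. Krt18, the type I chain of simple epithelia, held 273, 228 and 244 CPM in NTD libraries 1 to 3, against 9.40, 10.4 and 7.67 CPM in control libraries 1 to 3. Both groups were tight, with a coefficient of variation of 9.23% in NTD and 15.0% in controls, and they lay far apart. The ratio of means was 27.1, and the fitted log2 fold change was 4.76 ± 0.30 (SE, n = 3 per group). Krt8, its type II partner, held 166, 198 and 307 CPM in NTD libraries, against 0.690, 11.7 and 7.88 CPM in controls. Its NTD values lay above all controls, and control library 1 stood apart from the other controls with 16 counts, where Krt18 had 218. The ratio of means was 33.1 (log2 fold change 5.05 ± 0.90 SE). On the log2 scale it was 5.71 without control library 2. With control library 1 and NTD library 3 both left out, it was 4.21. Of the 50-base words in Krt8 transcripts, 26.9% (514 words) also occur in transcripts of other genes, and all 514 are in the processed pseudogene Krt8-ps on chromosome 7, so part of its reads may be assigned uncertainly.

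Krt19, a type I keratin without a tail domain that is found in ducts and simple epithelia, held 37.5, 42.4 and 63.4 CPM in NTD libraries, against 0.474, 1.31 and 1.36 CPM in controls. The highest control, at 1.36 CPM, lay far below every NTD library, and the ratio of means was 45.6 (log2 fold change 5.50 ± 0.75 SE). Krt7, a type II keratin of ducts and trophoblast, was nearer to its control level, with 131, 91.1 and 80.8 CPM in NTD libraries, against 7.42, 18.1 and 48.9 CPM in controls. Its control libraries differed 6.59-fold from lowest to highest, the lowest being library 1 and the highest library 3. The ratio of means was 4.07 (log2 fold change 2.03 ± 0.62 SE). The log2 fold change was 1.60 without control library 1 and 2.98 without control library 3.

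Krt5, the type II keratin of basal keratinocytes, held 0, 0.0388 and 0 CPM in NTD libraries, which is 1 count in all, against 39.2, 7.30 and 5.69 CPM in controls, which is 1219 counts. Control library 1 carried most of the control counts, and the other 2 controls also lay above every NTD library. The ratio of NTD to control over the pooled counts was 0.000841, with an exact 95% interval from 2.13e-05 to 0.00469 that covers counting error only. Without control library 1 it was 0.00221 (5.59e-05 to 0.0124). Of the 50-base words of Krt5, 8.52% (183 words) are shared with other genes, 150 of them with Krt6a. Krt14, the partner of Krt5 and named here after its values were seen, held 0 counts in the NTD libraries and 5.22, 4.53 and 2.51 CPM in controls. That made it at least 29.6-fold lower in NTD libraries against a floor of 3 counts per library, and edgeR did not call it (adjusted p = 0.168), while DESeq2 did (adjusted p = 0.0060). Krt15, another basal keratin, was at 1.37 ± 2.37 CPM in NTD libraries and 9.53 ± 11.9 CPM in controls (SD, n = 3 each, adjusted p = 0.723 by edgeR). Control library 1 again held the most Krt15, 23.2 CPM. NTD library 2, at 4.11 CPM of Krt15, lay above controls 2 and 3, at 3.51 and 1.88 CPM. Krt10, of the layers above the basal one, overlapped between the groups at 7.46 ± 8.04 CPM in NTD libraries and 9.26 ± 3.51 CPM in controls (edgeR adjusted p = 0.974).

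**Figure D2:**
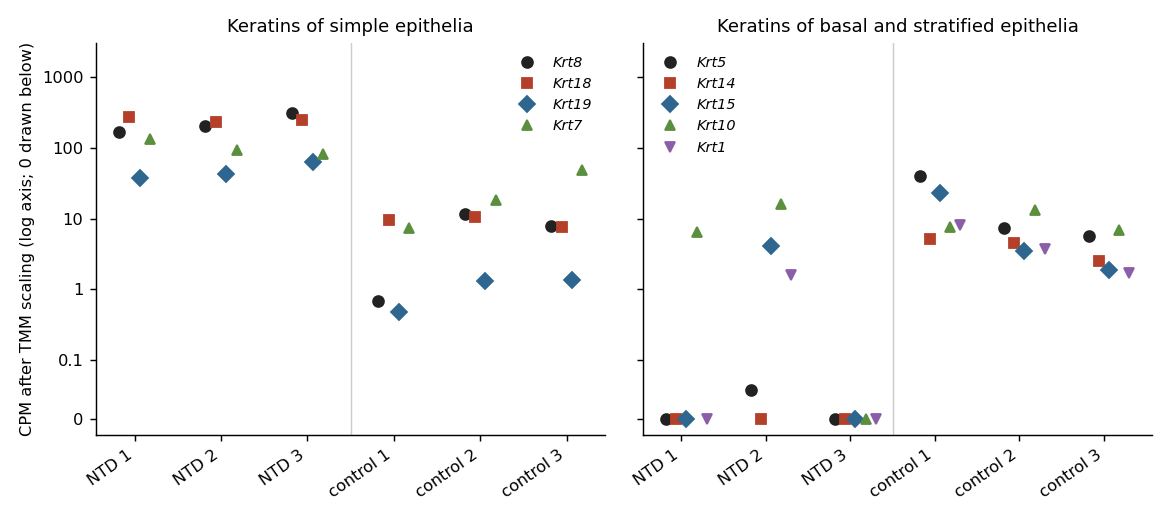
CPM (log axis, with 0 drawn at the bottom) of 4 simple-epithelial keratins on the left and of 5 basal and stratified keratins on the right, for each brain library. Krt8, Krt18 and Krt19 are at 37.5 CPM or more in every NTD library, while Krt5 and Krt14 are at or near 0 there and Krt5 is at 5.69 to 39.2 CPM in controls.

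Within each library, simple and basal keratins can be set against each other without regard to scaling. Krt7, Krt8, Krt18 and Krt19 together made up at least 99.99% of the counts of the 5 keratins in NTD libraries, and 31.4%, 85.0% and 92.0% in control libraries 1, 2 and 3. Control library 1 thus had more Krt5 than the simple keratins together, and it was also the library with the lowest sum of simple keratins, 17.98 CPM against 41.5 and 65.8 CPM in controls 2 and 3. The NTD libraries summed to 560 to 695 CPM. The ratio of Krt8 to Krt18 per base of exon was 0.446, 0.639 and 0.926 in NTD libraries, against 0.0539, 0.830 and 0.754 in controls. Controls 2 and 3 lay within the range of the NTD libraries, and control library 1 lay below it. Of 7 other genes listed with a Krt symbol in the brain table, 5 were tested and 0 were called in either direction by edgeR. Of those 5, 1 was lower and 0 were higher at an unadjusted p under 0.05, against 782 lower and 966 higher of all 11626 genes. DESeq2 called Krt14 lower.

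Cldn6 had the highest level per length among the 10 genes in both groups. This claudin of early embryonic epithelia held 654, 788 and 746 CPM in NTD libraries, against 64.0, 30.9 and 22.5 CPM in controls. The NTD values differed 1.20-fold from lowest to highest, and none came near the controls. The ratio of means was 18.6 (log2 fold change 4.22 ± 0.40 SE). Cldn7, a claudin that binds Epcam in epithelial cells, held 47.1, 43.7 and 6.79 CPM in NTD libraries, against 0, 0.329 and 0.522 CPM in controls. NTD library 3 lay 6.94-fold below NTD library 1, yet above all controls, which shared 19 counts. The ratio of means was 114.8 (log2 fold change 6.83 ± 1.52 SE). The log2 fold change was 6.25 without control library 1 and 7.55 without control library 3. The ratio of Cldn7 to Cldn6 was accordingly 0.0721 and 0.0555 in NTD libraries 1 and 2 but 0.00910 in NTD library 3, against 0, 0.0106 and 0.0232 in controls.

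Cdh1 held 257, 157 and 243 CPM in NTD libraries, against 8.37, 30.7 and 55.1 CPM in controls. All NTD values lay above the controls, of which library 1 was the lowest. The ratio of means was 6.97 (log2 fold change 2.80 ± 0.59 SE). The log2 fold change was 2.35 without control library 1 and 3.48 without control library 3. Cdh2, the cadherin of neural tissue, was at 123, 130 and 149 CPM in NTD libraries and 257, 205 and 291 CPM in controls, below them in all 3 NTD libraries, and was not called (log2 fold change -0.91 ± 0.23 SE, edgeR adjusted p = 0.0807). DESeq2 called Cdh2 lower (adjusted p = 0.00937). Cdh1 exceeded Cdh2 in every NTD library, at 1.20 to 2.10 counts per count of Cdh2, and not in any control library, at 0.0326 to 0.189. Epcam had the smallest ratio of means among the 9 genes with higher values, with 49.0, 42.3 and 48.5 CPM in NTD libraries, against 27.99, 6.14 and 8.87 CPM in controls. Control library 1 was the highest control for Epcam, as it was for Cldn6 and Krt5, while it was the lowest for Krt7, Krt8, Krt19, Cldn7 and Cdh1. The Epcam ratio of means was 3.25 (log2 fold change 1.70 ± 0.65 SE). Its log2 fold change was 2.64 without control library 1 and 1.34 without control library 2.

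Muc13 held 5.94, 17.5 and 44.6 CPM in NTD libraries 1 to 3 and 0 counts in all 3 controls. The NTD libraries differed 7.50-fold from lowest to highest, the widest spread of any of the 10 genes in that group apart from Krt5. Against a floor of 3 counts in each control library, Muc13 was at least 172-fold higher in NTD libraries, and at least 89.0-fold without NTD library 3, which held the most.

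**Figure D3:**
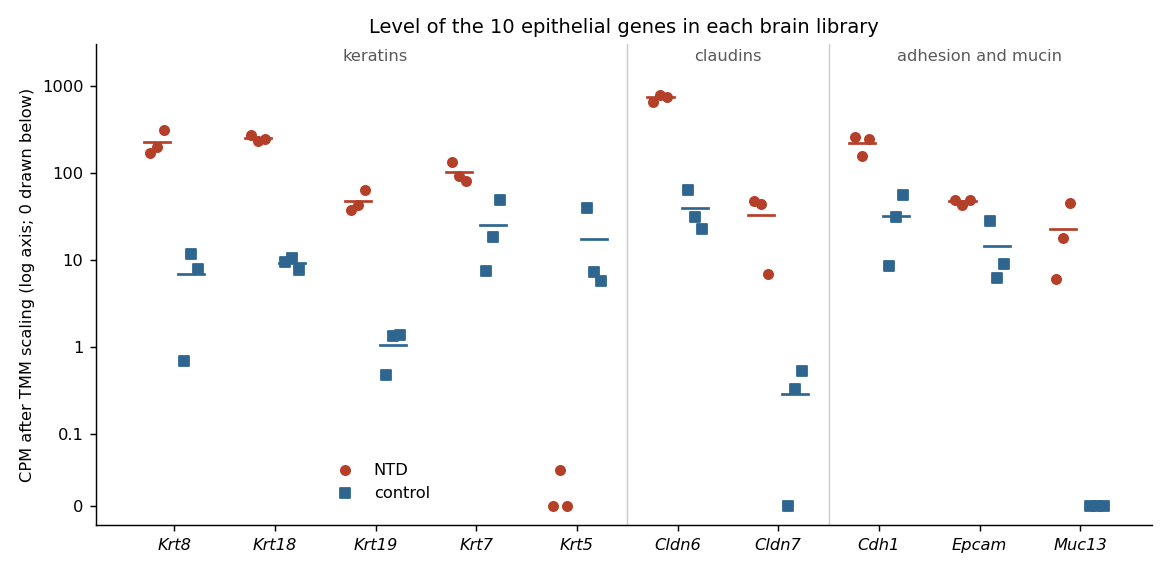
CPM (log axis, with 0 drawn at the bottom) of the 10 epithelial genes in each brain library, with NTD libraries as circles, controls as squares and the mean of each group as a line. For 9 genes all NTD points lie above all control points, and for Krt5 the order is turned round.

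In all, 9 of the 10 genes lay higher in every NTD library than in any control, and 1 lay lower. Of all tested genes 12.4% lay wholly above and 12.1% wholly below, 24.5% together. By edgeR's quasi-likelihood test across all 11626 genes, 7 of the 10 were higher (all but Krt7 and Epcam) and 1 lower (Krt5), against 1.89% of all genes higher and 0.998% lower, 2.89% together. Since the same contrast chose the genes, nothing is read from these counts. Without NTD library 1, 2 or 3, the number called higher was 2, 3 and 3, and without control library 1, 2 or 3 it was 7, 3 and 6. Krt5 was not called when any one library was left out.

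Set per kilobase of exon, the order of the levels differed between the groups. In NTD libraries it ran from Cldn6 (424 CPM per kb) over Krt18 (173), Krt8 (114), Cdh1 (47.9), Krt19 (25.8), Epcam (21.2), Cldn7 (16.7), Krt7 (14.3) and Muc13 (7.46) to Krt5 (0.00588). Neighbours from Cldn6 down to Krt19 did not overlap over the 3 libraries, although Krt18 and Krt8, and Cdh1 and Krt19, nearly touched. Neighbours from Krt19 to Muc13 did overlap. In controls Cldn6 was again first (22.7 CPM per kb), followed by Krt5 (7.93), Cdh1 (6.86), Epcam (6.53), Krt18 (6.37), Krt7 (3.52), Krt8 (3.46), Krt19 (0.565), Cldn7 (0.146) and Muc13 at 0. Each of these control neighbours down to Cldn7 overlapped the next over the 3 libraries. The length used for Krt7, 7049 bases, joins the exons of all its transcripts, so its level per length may be too low.

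Among genes of the same structures that are not among the 10, edgeR called 4 of 67 tested higher, namely Cldn2, Prss8, Spint2 and Lsr, and 0 lower, where 1.89% of all genes were higher and 0.998% lower. These 67 come from lists of keratins, claudins, other junction genes, mucins, proteases and regulators of epithelia. At an unadjusted edgeR p under 0.05, 11 were higher and 5 lower, against 966 higher and 782 lower of all 11626 genes. DESeq2, which tested 81, called 8 higher (the same 4 with Crb3, Pkp2, Spint1 and St14) and 2 lower (Krt14 and Col17a1). DESeq2 was given all 14496 genes of the brain table without the filter on low counts, and called 780 higher and 511 lower. The 67 had a median log2 fold change of 0.36, against -0.02 for all tested genes. Prss8, a membrane-anchored serine protease, held 67.4 ± 12.01 CPM in NTD libraries and 1.32 ± 0.58 CPM in controls (SD, n = 3 each, log2 fold change 5.66 ± 0.61 SE, edgeR adjusted p = 0.0020). Spint2, which inhibits such proteases, rose to 516.5 ± 133 CPM in NTD libraries, against 114 ± 21.8 CPM in controls (log2 fold change 2.19 ± 0.26 SE, adjusted p = 0.00327). Both calls held whichever single library was left out. Spint1, a related inhibitor, was at 77.6 ± 23.6 CPM in NTD libraries and 4.01 ± 3.64 CPM in controls (adjusted p = 0.109). Its edgeR adjusted p was 0.0126 without control library 1 and 0.321 without control library 3. Cd24a, a surface glycoprotein that neurons also carry, was at 492 ± 60.6 CPM in NTD libraries and 725 ± 126 CPM in controls (adjusted p = 0.216).

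Of the 11 other claudins tested, Cldn2, a claudin that forms cation pores in leaky epithelia, was the one called. It held 207, 120 and 146 CPM in NTD libraries, against 0, 0.9496 and 1.15 CPM in controls (log2 fold change 7.82 ± 1.02 SE, edgeR adjusted p = 0.00547). The call ended without NTD library 1 (adjusted p = 0.0599) or control library 2 (0.0548). Cldn11, known from myelin, was at 12.6 ± 4.55 CPM in NTD libraries and 35.1 ± 10.3 CPM in controls (adjusted p = 0.270 by edgeR), and Cldn12 was at 63.7 ± 51.8 CPM in NTD libraries and 75.3 ± 10.2 CPM in controls (adjusted p = 0.925). Of 13 genes of tight junction partners and scaffolds, Lsr, which marks tricellular junctions, rose to 107 ± 34.1 CPM in NTD libraries, against 30.9 ± 2.60 CPM in controls (log2 fold change 1.78 ± 0.35 SE, edgeR adjusted p = 0.0292). That call was lost whichever library was dropped (edgeR adjusted p from 0.0657 to 0.120). The polarity gene Pard3 overlapped between the groups (edgeR adjusted p = 0.909).

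By edgeR, no gene of the adherens junction, desmosome or hemidesmosome lists was called, while DESeq2 called the desmosome gene Pkp2 higher (adjusted p = 0.0251) and Col17a1 of the hemidesmosome lower (adjusted p = 0.000158). Of 8 adherens junction genes edgeR called 0, with 1 higher and 0 lower at an unadjusted p under 0.05. Of all 11626 genes, 966 were higher and 782 lower at that threshold. Ctnnb1 (β-catenin), which binds the tail of cadherins, was at 1506 ± 74.6 CPM in NTD libraries and 1922 ± 236 CPM in controls (edgeR adjusted p = 0.380). Ctnna1 (α-catenin) was at 387 ± 64.0 CPM in NTD libraries and 285 ± 20.2 CPM in controls (adjusted p = 0.373). Of 7 desmosome genes edgeR called 0, with 2 higher and 1 lower at an unadjusted p under 0.05. Dsg2, a desmosomal cadherin of simple epithelia and heart, was at 100.03 ± 18.3 CPM in NTD libraries and 8.29 ± 7.98 CPM in controls (adjusted p = 0.298). It held 0 CPM in control library 1, and without that library the edgeR adjusted p was 0.0157. Without control library 2 it was 0.596. Jup, which links desmosomes to filaments, was at 80.1 ± 32.7 CPM in NTD libraries and 104.4 ± 49.5 CPM in controls (adjusted p = 0.809). Of 6 genes of hemidesmosomes and laminin-332, 0 were called by edgeR, with 0 higher and 1 lower at an unadjusted p under 0.05. Cd151 (adjusted p = 0.642) and Plec (adjusted p = 0.880) overlapped between the groups. The mucins Muc1 (edgeR adjusted p = 0.967) and Muc4 (adjusted p = 0.762) did so too, as did Krt20, a keratin of gut epithelium (adjusted p = 0.876).

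**Figure D4:**
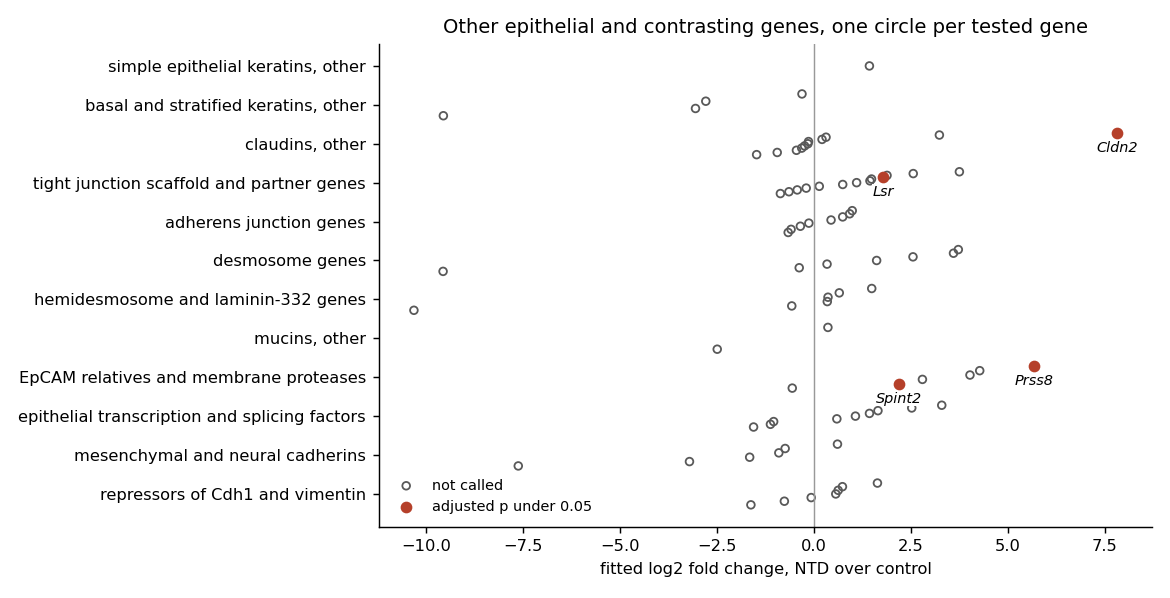
Fitted log2 fold change of NTD over control for each tested gene of 12 lists, 1 circle per gene, with called genes filled and named. Cldn2, Prss8, Spint2 and Lsr lie between 1.78 and 7.82, and circles far to the left include Krt14, Dsp and Col17a1, whose fitted values depend on the prior count because the NTD libraries held 0 or 1 count.

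Regulators of epithelial state were not called either. Of 9 tested transcription and splicing factors edgeR called 0, and 0 had an unadjusted p under 0.05. Of all 11626 genes, 966 were higher and 782 lower at that threshold. Tfap2c, a factor of trophoblast and surface ectoderm, was at 51.2 ± 22.7 CPM in NTD libraries and 24.4 ± 23.8 CPM in controls (edgeR adjusted p = 0.596), and control library 1 held 51.8 CPM. Esrp1, a splicing factor of epithelia, was at 40.2 ± 10.8 CPM in NTD libraries and 26.7 ± 5.16 CPM in controls (adjusted p = 0.684). Of 7 genes with the repressors of Cdh1 and vimentin, 0 were called by edgeR, with 0 higher and 1 lower at an unadjusted p under 0.05. Snai1, a repressor of Cdh1, was at 129 ± 18.2 CPM in NTD libraries and 77.6 ± 30.4 CPM in controls (adjusted p = 0.387). Its NTD values all lay above the controls, the same side as those of Cdh1. Vim, the intermediate filament of mesenchyme and neural progenitors, was at 409 ± 184 CPM in NTD libraries and 695 ± 134 CPM in controls (adjusted p = 0.349). Of 6 tested cadherins of mesenchyme and neural tissue edgeR called 0, with 0 higher and 3 lower at an unadjusted p under 0.05. Cdh4 (R-cadherin) was at 14.4 ± 1.87 CPM in NTD libraries and 45.6 ± 22.1 CPM in controls (adjusted p = 0.189).

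Over the 6 brain libraries, the genes whose log2 CPM went most like that of Krt18 among 8969 genes were Hoxd10, G3bp1, Tpbpa, Slc23a3 and Hpn, with Pearson r from 0.997 to 0.999. Another 26 genes also had r above 0.99. For Krt5 the closest were Tubb3, Cacna1d, Trp53inp2, Slc22a17 and Islr2, with r from 0.991 to 0.999. Tubb3, a tubulin of neurons, averaged 303 ± 23.2 CPM in NTD libraries and 1571 ± 682 CPM in controls. Cacna1d, a calcium channel gene, was at 0.0390 ± 0.0391 CPM in NTD libraries and 17.3 ± 18.4 CPM in controls. The 6 points fall into the 2 groups and share their libraries, and no p is given.

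In mESC, Cdh1, Cldn6, Epcam and Krt18 were all expressed, each at a somewhat lower FPKM in FA0 than in FA4. The listed genes held 5247130 counts in FA0 and 3901966 in FA4. The authors' FPKM values were 188 in FA0 and 201 in FA4 for Cdh1, which places it above 98.0% of the listed genes in FA0 and 98.2% in FA4. Krt18 was at 29.7 FPKM in FA0 and 32.1 in FA4, Epcam at 28.5 in FA0 and 33.9 in FA4, and Cldn6 at 31.6 in FA0 and 43.6 in FA4. Each of the 4 stood above at least 75.9% of the listed genes in both libraries. The listed genes are those with a peak entry, not all genes. With 1 library per group there is no replicate check. The count ratio of FA0 to FA4, scaled by the relative depth of 1.33, was 0.710 for Cldn6 with an exact 95% interval from 0.610 to 0.826. It was 0.762 (0.646 to 0.9002) for Epcam, 0.939 (0.904 to 0.976) for Cdh1 and 0.924 (0.780 to 1.10) for Krt18. These intervals cover counting error only. On the log2(FPKM + 1) scale the differences, in the same order of genes, were -0.45, -0.25, -0.09 and -0.11, against a 5th to 95th percentile range of -0.49 to 0.51 over the 6771 genes that averaged 5 FPKM or more. None of the 4 reached 2-fold, which 1.24% of those genes did.

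**Figure D5:**
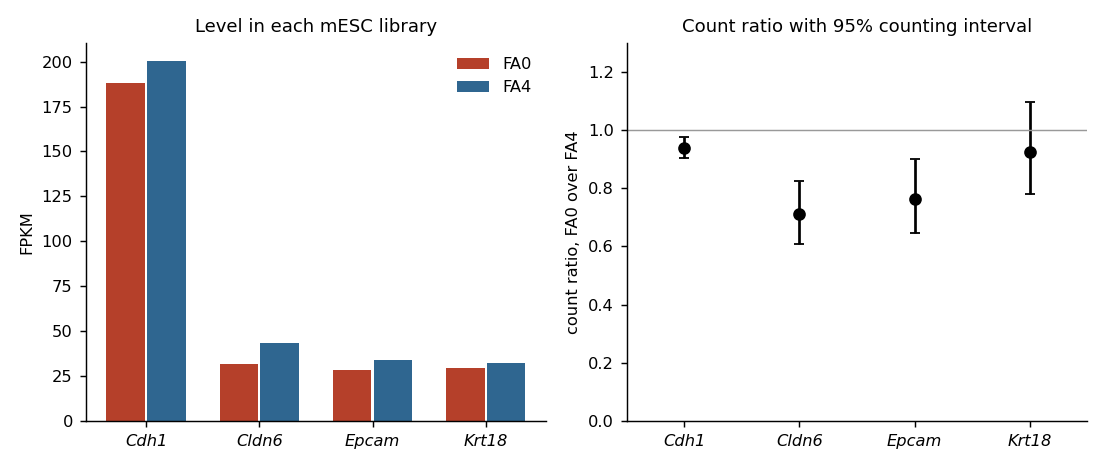
Left, FPKM of 4 epithelial genes in the FA0 and FA4 mESC libraries, 1 library each. Right, count ratio of FA0 to FA4 scaled by relative depth with its exact 95% counting interval, which lies below 1 for Cdh1, Cldn6 and Epcam and spans 1 for Krt18.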

How the data were processed

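The submitters' processing notes name build mm10 and the tools HISAT2 2.0.4, cutadapt 1.9.3, edgeR and HTSeq 0.9.1. Gene models, strandedness and the step each tool did were not given in the sources used here. RNA was depleted of ribosomal RNA and read as pairs of 150 bp, per the labels. The deposited brain table holds raw counts per gene, per the file headers. The deposited mESC table holds estimated counts, rounded here to whole numbers, and FPKM by the authors.

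For the brain libraries, edgeR 4.0.16 was run on the counts (quasi-likelihood F-test, robust dispersion, TMM, filterByExpr, Benjamini-Hochberg over the 11626 genes kept; called at an adjusted p under 0.05). The SE of a log2 fold change is its size over the root of the F statistic. The labels do not say whether replicates are from different litters; a p-value here reflects only how far these samples spread, which may be technical. Exon lengths came from GENCODE M21. The relative mESC depth is the median ratio of counts to FPKM over 2953 genes above 20 FPKM. Alternatives were DESeq2 1.42.0, other scalings and filters, the replicate number as a block, libraries left out and other mESC pseudocounts. The edgeR test was also run on simulated counts with known changes.

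The 10 genes and all lists were chosen with earlier results of these data known. Besides the 10, the text names up to 4 called genes of each list with the smallest adjusted p, up to 2 uncalled ones with the highest mean, and the 5 genes most correlated with Krt18 and with Krt5 at a mean log2 CPM of at least 3. One gene that this rule names is not reported here. Krt14, Krt23, Zeb1, Dsp, Col17a1 and other genes called under an alternative alone were named after their values were seen. So were Prl3d2, Rbfox3, Sox2 and Pax6.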

Additional observations from a re-analysis of the deposited data

How the results depend on the processing

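Given all 14496 genes, DESeq2 called 780 higher and 511 lower, against edgeR's 220 and 116 of 11626. Among the other epithelial genes DESeq2 called 8 and 2 of 81, against 4 and 0 of 67. The replicate number as a block gave 132 higher and 73 lower, but same-numbered libraries did not deviate together (correlations of -0.02, 0.09 and 0.03), and not every library correlated best with its own number. Leaving out each library gave 33 to 225 genes higher and 17 to 78 lower, and among the epithelial genes 2 to 7 higher and 0 lower. Without control library 1 and NTD library 3 together, 8 epithelial genes were higher: Cldn2, Crb3, Dsg2, F11r, Prss8, Spint1, Spint2 and Tfap2c. Other scalings and filters left these counts within 1.5 times. No log2 fold change of the 10 genes changed sign in any of the 13 alternatives. Dropping libraries could not have turned one, because the groups do not overlap for these genes, so nothing is read from it. The log2 fold change of Krt18 stayed between 4.62 and 4.86. Among named genes that were not called, the sign of the log2 fold change turned on dropping 1 library: Krt10 (-1.59 to 0.21), Cldn12 (-1.20 to 0.0939), Pard3 (-0.49 to 0.22), Jup (-0.71 to 0.081), Plec (-2.26 to 0.0115) and Muc1 (-0.17 to 0.86). It also turned for Krt10 (0.14) and Jup (0.37) without both libraries and for Muc1 (-0.49) with the block; the cause was not tested. The mESC ratios under the other pseudocounts lay within the counting intervals. The count ratios lie there by construction, since the intervals are built around them. For Epcam the log2 count ratio was -0.39, against -0.25 on the log2(FPKM + 1) scale. Depth limits genes near 3 counts: Krt5 in NTD libraries and Muc13 and Cldn7 in controls.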

Other observations

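Genes of the anchoring junctions did not share one direction. Dsp (desmoplakin), which ties keratin filaments to desmosomes, held 1 count over the NTD libraries and 1021 over the controls, a ratio of 0.00100 with an exact 95% interval from 2.54e-05 to 0.00561, and edgeR did not call it (adjusted p = 0.0939). Without control library 1 the ratio was 0.0109 (0.000271 to 0.0628). Control library 1 held 41.3 CPM of Dsp and controls 2 and 3 held 1.42 and 1.25 CPM. The same NTD libraries held 109.8, 111.4 and 78.9 CPM of Dsg2 and 166 to 307 CPM of Krt8. Col17a1, a collagen of hemidesmosomes in basal keratinocytes, held 0 counts in the NTD libraries and 10.998, 5.88 and 3.86 CPM in controls, at least 50.1-fold lower in NTD libraries against the floor of 3 counts per library (edgeR adjusted p = 0.126, DESeq2 adjusted p = 0.000158).

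Some epithelial genes outside the 10 were also read in mESC. The level of Spint2 was 74.2 FPKM in FA0 and 69.6 FPKM in FA4, and that of Cldn4 was 63.0 FPKM in FA0 and 54.2 FPKM in FA4. These genes were picked after their values were seen.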
